A study of Macaca fascicularis with 2 samples.

Results

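CX3CR1 and ADGRG1 head a group of 7 genes described here in circulating CD4+CD8+ T cells of a cynomolgus monkey, together with AFAP1L2, CD226, RAP1GAP2, CLEC12A and RGS9. These 7 of the 29324 genes counted were chosen by measured values, because they stood high in granzyme B cells in earlier results of these same cells. Their level in granzyme B cells is therefore a description and not a finding. CX3CR1, ADGRG1, CD226 and CLEC12A encode proteins of the cell surface, whereas AFAP1L2, RAP1GAP2 and RGS9 encode proteins inside the cell, so the set is not a set of surface receptors alone. In the order CX3CR1, ADGRG1, CD226, CLEC12A, AFAP1L2, RAP1GAP2 and RGS9, their identifiers were ENSMFAG00000044029, ENSMFAG00000002223, ENSMFAG00000042682, ENSMFAG00000039803, ENSMFAG00000002810, ENSMFAG00000002321 and ENSMFAG00000035462.

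The cells came from the blood of 1 untreated animal aged 10 years. Fresh mononuclear cells were passed over CD4 beads, and those retained were passed over CD8 beads. Antibodies to CD4 and CD8α that carry DNA tags were bound to the sorted cells, and 1 library of RNA 5′ ends and 1 library of tags were sequenced. No group has a replicate, so no test across animals was possible, and every 95% interval given covers counting error only.

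Cytotoxic T cells carry perforin and granzymes in granules and release them onto a target. Circulating effector cells of this kind are known for a set of receptors that direct them along vessel walls and set the threshold for killing. CX3CR1 is the receptor of fractalkine, a chemokine held on the surface of inflamed endothelium, and marks terminal effector cells in both the CD4 and the CD8 lineage. ADGRG1, also called GPR56, is an adhesion G protein-coupled receptor of cytotoxic lymphocytes. CD226, or DNAM-1, is an activating receptor that binds nectin-family ligands on target cells and competes for them with TIGIT and CD96. CLEC12A is an inhibitory C-type lectin receptor that recruits SHP phosphatases and is best known from myeloid cells. RAP1GAP2 switches off the small GTPase Rap1, which controls integrin adhesion. RGS9 speeds the switching off of G protein alpha subunits and is best known from photoreceptors and striatal neurons. AFAP1L2 is an adaptor that binds actin-associated proteins and Src-family kinases.

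A total of 8830 cells with 31677119 gene UMIs passed the filter. A UMI (unique molecular identifier) stands for 1 captured RNA molecule, and levels are given as CPM, the UMIs of a gene per 1000000 gene UMIs of a group of cells. Cells with at least 3 GZMB UMIs are called GZMB cells; they were 1437 cells (16.3%), with a median depth of 3661 UMIs and a median of 17 GZMB UMIs, against a median depth of 3036 in the 7393 other cells. Each cell was placed in a gate by its tags, with thresholds of 144 UMIs for CD4 and 419 UMIs for CD8. The GZMB cells comprised 388 CD4hiCD8lo, 792 CD4hiCD8hi, 247 CD4loCD8hi and 10 CD4loCD8lo cells. Coreceptor RNA followed the tags, with CD4 at 165, 127 and 1.07 CPM and CD8A at 110, 397 and 1050 CPM in the first 3 of these gates. T cell markers (CD3D, CD3E, CD3G, TRAC and CD247 together) stood at 4155 to 4540 CPM in the same gates, while the platelet genes PPBP, PF4 and GP9 were at 0.

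All 7 genes had a higher level in GZMB cells than in the other cells, but the size of the difference was far from uniform, and CD226 stood apart from the other 6. For CX3CR1 the level was 219 CPM (95% interval 207 to 231) in GZMB cells and 0.668 CPM (0.389 to 1.07) in the others. GZMB cells held 98.8% of its 1382 UMIs. AFAP1L2 was as restricted, at 46.3 CPM (41.1 to 52.0) against 0.275 CPM (0.111 to 0.567), with 97.6% of 296 UMIs in GZMB cells. ADGRG1, CLEC12A and RGS9 formed a middle group in which GZMB cells held 93.5%, 93.6% and 93.0% of the UMIs. ADGRG1 stood at 74.4 CPM (67.8 to 81.5) against 1.26 CPM (0.860 to 1.78). CLEC12A stood at 134 CPM (125 to 143) against 2.24 CPM (1.70 to 2.90). RGS9 stood at 197 CPM (186 to 208) against 3.66 CPM (2.95 to 4.48). The remaining members were shared more widely. RAP1GAP2 was measured at 60.7 CPM (54.8 to 67.2) in GZMB cells and 6.64 CPM (5.68 to 7.72) in the others, a ratio of 9.14. CD226 was measured at 52.3 CPM (46.7 to 58.2) and 30.5 CPM (28.4 to 32.8), a ratio of 1.71, and 777 of its 1103 UMIs lay outside the GZMB cells.

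Expressed as log2 ratios of GZMB cells to other cells, the members ran from 8.35 (7.67 to 9.14) for CX3CR1 to 0.77 (0.58 to 0.96) for CD226, with a median of 5.89 against 0.14 over all genes. Of the 10178 genes with at least 50 UMIs in both groups together, CX3CR1 ranked 3, AFAP1L2 ranked 7, CLEC12A, ADGRG1 and RGS9 ranked 23 to 25, RAP1GAP2 ranked 126 and CD226 ranked 1526. Of the members, 6 of 7 were at least 2-fold higher in GZMB cells, and 10.2% of all genes were. Since the members were chosen for this contrast, nothing is read from that count.

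**Figure D1:**
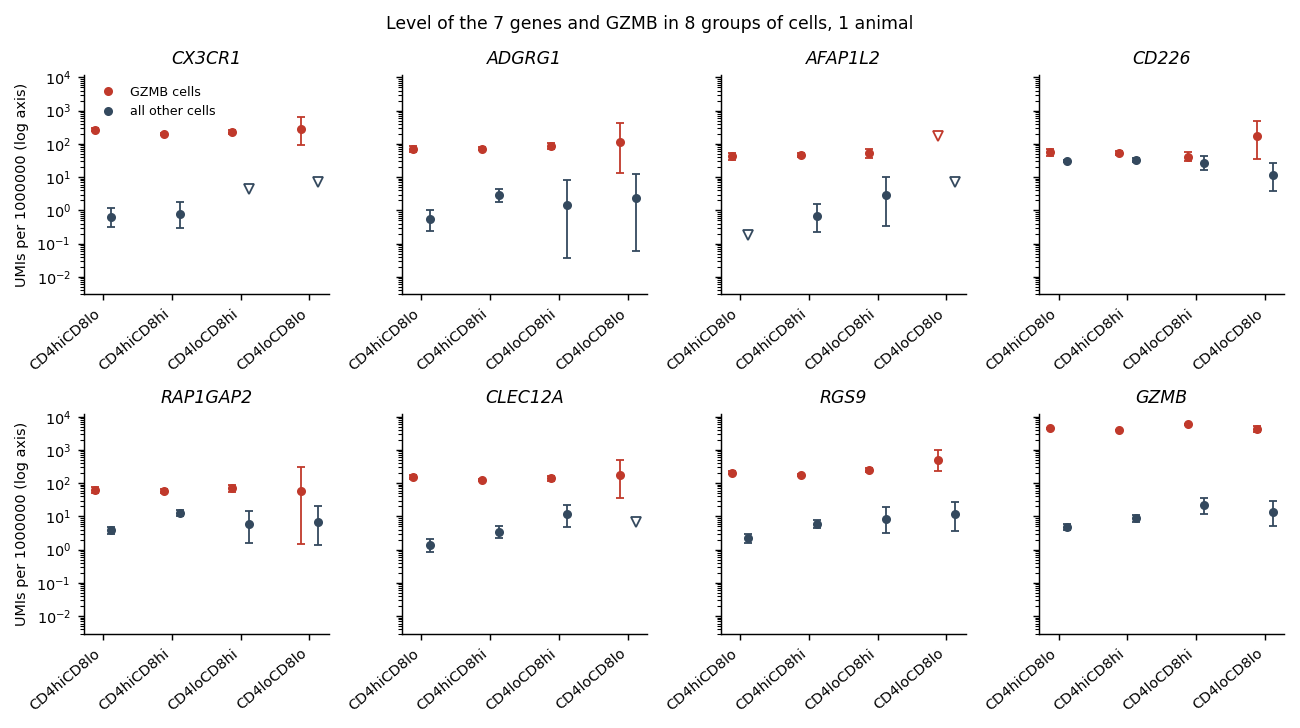
Level of each gene in UMIs per 1000000 (log axis) in the 4 tag gates, for GZMB cells (red) and all other cells (dark blue), with exact Poisson 95% intervals; an open triangle marks a group with 0 UMIs, drawn at the limit of 3 UMIs. In the first 3 gates the red points of each gene lie close to each other, from 198 to 265 CPM for CX3CR1, while the dark points lie far below for every gene except CD226.

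In the gates of GZMB cells the levels of the 7 genes lay near each other, whichever coreceptor dominated. CX3CR1 stood at 265 CPM in CD4hiCD8lo, 198 in CD4hiCD8hi and 230 in CD4loCD8hi cells. ADGRG1 stood at 70.4, 72.2 and 88.7 CPM in the same order. CLEC12A stood at 153, 125 and 140 CPM. The first-named gate had the highest value of the fractalkine receptor and the lectin, and the CD8 tag-dominant gate that of the adhesion receptor. The intervals of ADGRG1 and those of CLEC12A overlapped between all of these gates. For CX3CR1 the interval in CD4hiCD8lo cells (239 to 292) overlapped that in CD4loCD8hi cells (200 to 262). It did not overlap that in CD4hiCD8hi cells (184 to 213). CD226 was at 55.5 CPM (44.2 to 68.9) in CD4hiCD8lo, 53.0 (46.0 to 60.9) in CD4hiCD8hi and 41.7 (29.6 to 56.9) in CD4loCD8hi cells. Among the intracellular members, AFAP1L2 was at 42.0, 46.7 and 52.3 CPM. RAP1GAP2 was at 62.3, 57.8 and 70.5 CPM, and for neither of these did any gate separate from another. RGS9 was at 253 CPM (222 to 288) in CD4loCD8hi, 205 (183 to 230) in CD4hiCD8lo and 179 (166 to 193) in CD4hiCD8hi cells, and the intervals of the first and the last did not overlap.

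Between CD4hiCD8lo and CD4loCD8hi GZMB cells, which carry opposite coreceptor levels, 0 of 7 members differed by 2-fold or more. Since only 2.72% of the 4934 genes with at least 50 UMIs did, this count is not particular to the members. Only RGS9 had an interval without 0, with a log2 ratio of −0.30 (−0.55 to −0.05), and 13.5% of all genes had one. That interval reached 0 with a CD4 tag threshold of 100, with a CD8 tag threshold of 300 and after thinning each cell to 2200 UMIs. The intervals of the other 6 included 0. The widest was that of CD226, whose level in CD4hiCD8lo was 1.33 times that in CD4loCD8hi cells (0.900 to 2.01), which still holds a difference of 2-fold, so a difference in CD226 was not detectable at this depth. For CX3CR1 the ratio was 0.21 (−0.04 to 0.45) and for CLEC12A 0.13 (−0.19 to 0.45), and the interval of CX3CR1 moved above 0 with a CD4 tag threshold of 200 (0.28, 0.05 to 0.52), without cells with a CCR7 UMI (0.26, 0.01 to 0.52) and without the 6% of cells with the highest doublet score (0.27, 0.03 to 0.52). ADGRG1 was at −0.33 (−0.76 to 0.10), AFAP1L2 at −0.32 (−0.88 to 0.25) and RAP1GAP2 at −0.18 (−0.65 to 0.30). The interval of ADGRG1 lay below 0 with a CD4 tag threshold of 100 (−0.61, −1.12 to −0.08) or 200 (−0.42, −0.83 to −0.01) and with a CD8 tag threshold of 300 (−0.72, −1.33 to −0.13), and that of AFAP1L2 with a CD4 tag threshold of 200 (−0.57, −1.11 to −0.04). The median of the members was −0.18 against 0.03 over all genes. GZMB itself was lower in CD4hiCD8lo cells, at 4424 against 5955 CPM.

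In the comparison of the 2 CD4hi gates, CX3CR1 and CLEC12A stood higher where the CD8 tag was low. Between CD4hiCD8lo and CD4hiCD8hi GZMB cells the log2 ratio was 0.42 (0.24 to 0.60) for CX3CR1 and 0.30 (0.06 to 0.53) for CLEC12A, while 0 of 7 members reached 2-fold, as 1.73% of 7091 genes did, and 2 of 7 had an interval without 0, as 11.1% did. Markers of other cells moved with this comparison. A CCR7 UMI, a naive and central memory marker, was found in 7.22% of CD4hiCD8lo and 18.1% of CD4hiCD8hi GZMB cells, and the 9 monocyte genes found summed to 33.2 and 247 CPM, with S100A8 and S100A9 at 0 in the first gate and above 0 in the second. Without cells with a CCR7 UMI the ratio of CX3CR1 was 0.26 (0.07 to 0.44), and that of CLEC12A was 0.10 (−0.15 to 0.34), which no longer excluded 0. Without the 6% of cells with the highest doublet score these were 0.25 (0.07 to 0.44) and 0.10 (−0.15 to 0.35). Without cells of B or monocyte markers they were 0.37 (0.19 to 0.55) and 0.26 (0.03 to 0.50). RGS9, at 0.20 with an interval that just reached 0, had an interval above 0 in 5 alternatives, among them a CD4 tag threshold of 200 (0.24, 0.04 to 0.44). With a CD8 tag threshold of 600, AFAP1L2 was at −0.46 (−0.85 to −0.08) and RAP1GAP2 at 0.45 (0.11 to 0.78), and without the highest doublet scores AFAP1L2 was at −0.47 (−0.94 to −0.02).

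RGS9 gave the largest log2 ratio of any member between gates. In CD4hiCD8hi relative to CD4loCD8hi GZMB cells it was −0.50 (−0.72 to −0.28), and it was the only 1 of 7 members with an interval without 0, which 12.7% of the 6845 genes tested had. None of the 7 reached 2-fold there, and 3.58% of all genes did. With a CD8 tag threshold of 600, CX3CR1 (−0.32, −0.56 to −0.08), ADGRG1 (−0.43, −0.82 to −0.04), RAP1GAP2 (−0.51, −0.95 to −0.07) and CLEC12A (−0.31, −0.61 to −0.01) also had intervals below 0. The interval of ADGRG1 lay below 0 too with a CD4 tag threshold of 100 (−0.58, −1.03 to −0.10) or 200 (−0.39, −0.73 to −0.05). It also did so without cells with at least 3 UMIs summed over FCER1G and TYROBP (−0.39, −0.77 to −0.0018). For RGS9 the ratio was −0.39 (−0.61 to −0.16) without cells with a CCR7 UMI and −0.30 (−0.53 to −0.08) without the cells of highest doublet score. NK and innate genes (NCAM1, FCER1G, TYROBP, KLRF1, NCR1 and SH2D1B) moved with the gates, summing to 112 CPM in CD4hiCD8lo, 216 in CD4hiCD8hi and 923 in CD4loCD8hi GZMB cells, with NCAM1, which many macaque NK cells lack, at 0 in both CD8hi gates. B cell genes summed to 33.9, 85.3 and 281 CPM. With cells of at least 3 UMIs summed over FCER1G and TYROBP left out, RGS9 stayed lower in CD4hiCD8hi cells at −0.48 (−0.71 to −0.25). With cells of B or monocyte markers left out it was at −0.53 (−0.75 to −0.30).

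**Figure D2:**
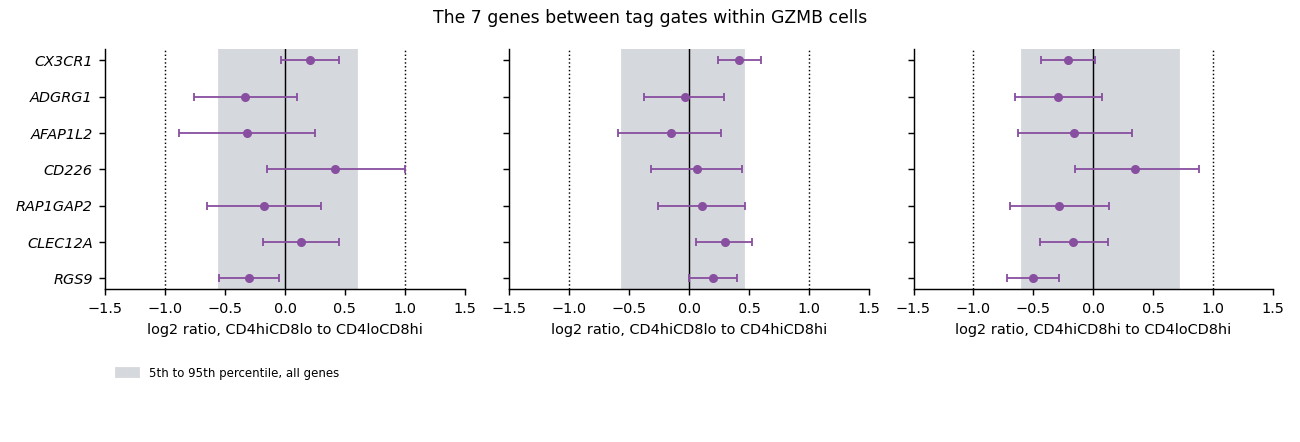
Log2 ratio of each gene between pairs of tag gates within GZMB cells, with exact 95% intervals; grey marks the 5th to 95th percentile of all genes tested and dotted lines mark 2-fold. The points lie inside the dotted lines in each panel, from −0.50 (RGS9) to 0.42 (CX3CR1).

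The 10 CD4loCD8lo GZMB cells held 23 UMIs of the 7 genes in all, and 9 of the cells were under 2200 UMIs deep. RGS9 accounted for 9 of these UMIs, at 512 CPM (234 to 972), CX3CR1 for 5, CD226 and CLEC12A for 3 each, ADGRG1 for 2 and RAP1GAP2 for 1. AFAP1L2 had 0 UMIs, which allows up to 171 CPM by the limit of 3 UMIs. This gate is too shallow to place any of the genes against the others.

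Some other genes of cytotoxic cells were more than 2-fold apart between CD4hiCD8lo and CD4loCD8hi GZMB cells, and those named had the largest ratios in their lists. The NK and innate genes that moved with the gates moved with these genes too. So did the cells with at least 3 UMIs summed over FCER1G and TYROBP, which were 0.773% of the first gate and 14.6% of the second. The part of either was not tested. Of 8 granule genes tested, 0 were at least 2-fold higher and 4 were at least 2-fold lower in CD4hiCD8lo than in CD4loCD8hi GZMB cells, with a list median of −0.76 against 0.03 over all genes, of which 2.72% were past 2-fold in either direction. CTSW, a lysosomal protease of killer cells, was at 16.9 against 305 CPM (log2 ratio −4.17). GNLY, which encodes granulysin, was at 223 against 1498 CPM (−2.75), and GZMA, a tryptase-type granzyme, was at 127 against 465 CPM (−1.87). Among 9 NK and killer receptors tested, 4 were at least 2-fold lower and 0 higher. KLRD1, the CD94 chain of NKG2 receptors, was at 59.6 against 445 CPM (−2.90), NCR3 at 50.1 against 136 CPM (−1.44) and KLRF1 at 73.1 against 190 CPM (−1.38). EOMES, a T-box transcription factor, was the 1 of 8 effector factors past 2-fold, at 23.7 against 48.1 CPM (−1.02), while HOPX was at −0.35 and IKZF3 at −0.31, and the median of that list was −0.16.

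Lists of relatives and partners of the members had from 0 to 3 genes each past 2-fold between these gates. Over all 4934 genes tested 2.72% were, so a count of 0 is not particular to a list. Members are counted in their own lists, namely CD226, ADGRG1, RAP1GAP2, RGS9, AFAP1L2 and CLEC12A. In the axis of CD226, CD96 was lower in CD4hiCD8lo cells at 20.3 against 85.5 CPM (−2.07), as 1 of 4 genes tested, whereas TIGIT, the inhibitory competitor of CD226, was at 127 against 111 CPM (0.19, −0.16 to 0.55). Of 12 chemokine, sphingosine phosphate and adhesion genes tested, 1 was at least 2-fold higher and 2 lower. CXCR3, a receptor of interferon-induced chemokines, was at 46.7 against 19.2 CPM (1.28), ITGAM, the CD11b integrin chain, at 23.0 against 60.9 CPM (−1.40) and CCL5 at 1128 against 2869 CPM (−1.35). For the adhesion receptors related to ADGRG1, only ADGRE5 also had at least 50 UMIs, at 365 against 382 CPM (−0.07). Of 9 Rap1 regulators tested 0 passed 2-fold in either direction, with RASGRP2, an exchange factor that activates Rap1, at 226 against 159 CPM (0.50), RAP1A at 0.45 and RASGRP1 at 0.41. Of 9 genes of the RGS and G alpha list 0 passed, with RGS19 at 171 against 103 CPM (0.73), RGS1 at 332 against 219 CPM (0.60) and RGS3 at 40.6 against 66.2 CPM (−0.70). In the list of AFAP1L2, the Src-family kinase FYN was the 1 of 4 past 2-fold, at 31.2 against 73.7 CPM (−1.24), and LCK was at 0.34. In the list of CLEC12A 0 of 5 passed, with CLEC2B at −0.37 and CLEC2D at 0.30. Of 9 naive and memory genes, IL7R was the 1 past 2-fold, at 320 against 98.3 CPM (1.70), and TCF7 was at 0.69. The genes of that list did not share a direction. Its median was 0.01, with 4 intervals above 0 and 2 below, beside 13.5% of all genes with an interval without 0.

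Shares of cells with a UMI also set GZMB cells apart from the others, but did not separate gates as clearly as levels for every gene. Because depth differed, each cell was thinned to 2200 UMIs, which left 1394 of the GZMB cells and 6682 of the others. A CX3CR1 UMI was then present in 36.8% of GZMB cells (34.3 to 39.4%), and in 54.6% before thinning. The share for RGS9 was 36.7% (54.5% before thinning), for CLEC12A 27.0% (42.5%) and for ADGRG1 16.1% (26.3%). RAP1GAP2 was found in 12.1% (22.5%), CD226 in 11.5% (18.7%) and AFAP1L2 in 8.82% (15.4%). By gate, the thinned share of CX3CR1 was 40.4% (35.4 to 45.6%) in CD4hiCD8lo, 35.1% (31.7 to 38.6%) in CD4hiCD8hi and 36.4% in CD4loCD8hi cells. The thinned shares of the CD4hi gates thus differed in the same direction as the CX3CR1 levels, but their intervals overlapped. Before thinning the first 2 of these were 55.2% and 55.3%, at unequal median depths of 3523.5 and 3863.5 UMIs. The thinned share of RGS9 was 37.8%, 32.8% (29.5 to 36.2%) and 47.7% (41.2 to 54.2%) in the same order. In the other cells the thinned shares were 0.105% for CX3CR1, 0.165% for ADGRG1, 0.419% for CLEC12A, 0.629% for RGS9, 1.20% for RAP1GAP2 and 6.27% for CD226, and AFAP1L2 was found in 0 of 6682 cells.

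The same shares were taken in 114 B control cells, which had at least 3 UMIs of B cell genes and no more than 1 UMI over the TRAC and CD3 chain genes, with a median depth of 4542 UMIs. CD226 had 0 UMIs in them, and the other members had 1 to 8 UMIs. After thinning, 3.57% of the control cells had an RGS9 UMI and 4.46% a RAP1GAP2 UMI, against 0.629% and 1.20% of all cells outside the GZMB cells, so over those cells as a whole neither share was above the control. CX3CR1, ADGRG1 and CLEC12A were each present in 1 of 112 thinned control cells, too few to set a background, and AFAP1L2 was in 0 of them. CD226 was in 6.27% of other cells (6.11% to 6.94% in the 3 larger gates) and in 0 of 112 control cells. The control cells were not free of cytotoxic RNA: they held 76 GZMB UMIs, in 3 cells, and before thinning 2 of the 114 had a UMI of 4 members. GZMB cells were not left out of the control. In the 173 cells with at least 3 B marker UMIs outside the GZMB cells, the thinned shares were 1.17% for RGS9 and 2.34% for RAP1GAP2.

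**Figure D3:**
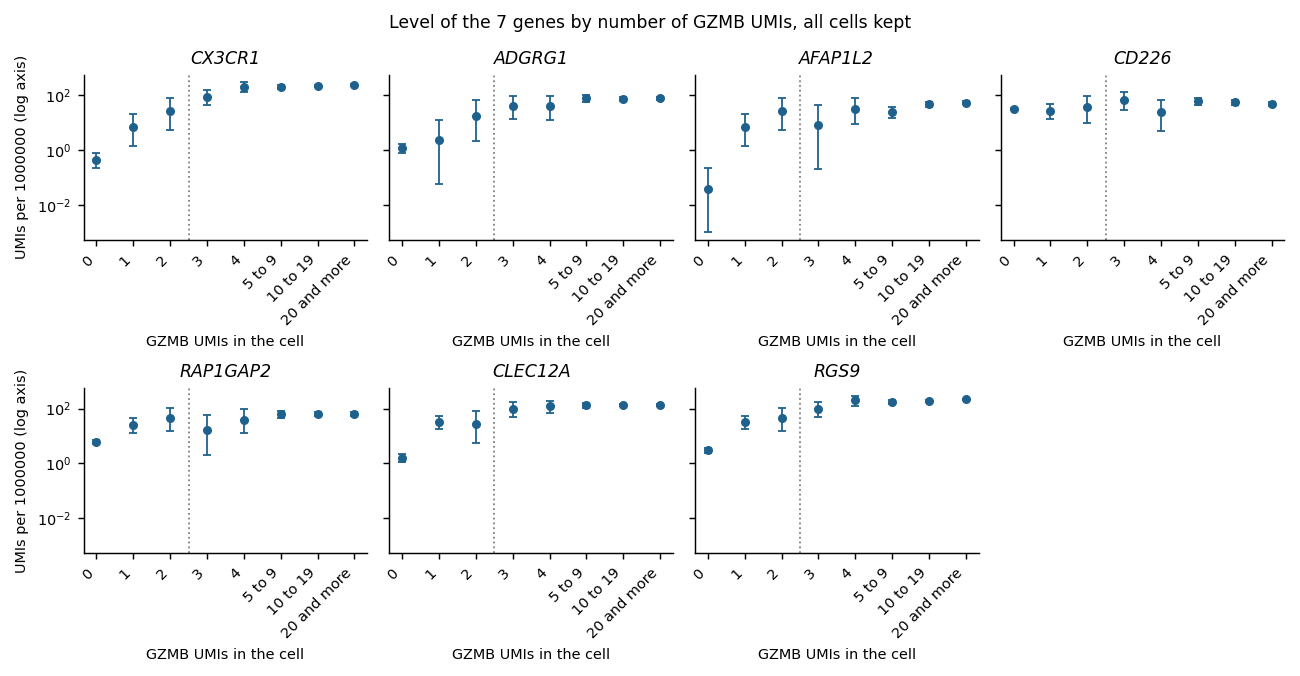
Level of each gene in UMIs per 1000000 (log axis) in cells grouped by their GZMB UMIs, with exact Poisson 95% intervals; the dotted line marks the threshold of 3. CX3CR1 goes from 0.442 CPM at 0 GZMB UMIs to 205 CPM at 4, and stays near that level up to 20 and more, whereas CD226 is about as high at 0 as at 1 or 2.

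Averaged over the cells of a bin, most members rose around the threshold of 3 GZMB UMIs. The members were chosen as high in GZMB cells, so this rise is a description. The 7252 cells with 0 GZMB UMIs had 0.442 CPM of CX3CR1 (0.221 to 0.791), and the 113 cells with 1 and 28 cells with 2 had 6.83 and 27.3 CPM, from 3 UMIs each. Just inside the threshold, the 34 cells with 3 GZMB UMIs had 89.2 CPM (44.6 to 160) and the 33 cells with 4 had 205 CPM (134 to 301). Above that CX3CR1 was level, at 199 CPM with 5 to 9, 218 CPM with 10 to 19 and 231 CPM with 20 and more GZMB UMIs. RGS9 took the values 2.97, 31.9, 45.4, 97.4 and 198 CPM from 0 to 4 GZMB UMIs, and 213 CPM at 20 and more. CLEC12A took 1.61, 31.9, 27.3, 97.4 and 119 CPM, and 137 CPM at 20 and more. Both genes were thus present below the threshold in cells with a trace of GZMB, at average levels between those of cells without any and those of GZMB cells. Whether single cells were intermediate or the bins mixed 2 kinds of cell was not tested. Within the GZMB cells, RGS9 stood at 173, 191 and 213 CPM and CLEC12A at 134, 133 and 137 CPM with 5 to 9, 10 to 19 and 20 and more GZMB UMIs. AFAP1L2 was also higher with more GZMB UMIs, from 24.5 CPM (14.5 to 38.8) at 5 to 9 to 46.4 (38.2 to 55.8) at 10 to 19 and 54.2 (46.0 to 63.5) at 20 and more. ADGRG1 stood at 76.3, 74.6 and 76.7 CPM and RAP1GAP2 at 61.3, 62.1 and 62.3 CPM over the same bins. CD226 ran at 30.6 CPM with no GZMB UMI and at 61.3, 54.3 and 48.9 CPM over those bins. AFAP1L2 had 1 UMI in the 7252 cells without GZMB.

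Outside the GZMB cells RAP1GAP2 and RGS9 stood higher in CD4hiCD8hi than in CD4hiCD8lo cells. The B control cells, from which GZMB cells were not left out, had 12.5 CPM of RAP1GAP2 (5.04 to 25.8) and 14.3 CPM of RGS9 (6.18 to 28.2). The 173 cells with at least 3 B marker UMIs outside the GZMB cells had 6.64 (2.67 to 13.7) and 7.59 CPM (3.28 to 15.0). Both intervals overlapped those of the CD4hiCD8hi cells, so a level above background was not shown. RAP1GAP2 had 97 UMIs in CD4hiCD8hi cells (10.5 to 15.9 CPM) and 65 UMIs in the more numerous CD4hiCD8lo cells (2.98 to 4.92 CPM), a ratio of levels of 3.37 (2.44 to 4.69). RGS9 was at 6.03 CPM (4.40 to 8.07) and 2.20 CPM (1.55 to 3.03), a ratio of 2.75 (1.74 to 4.37). Only 3 members had at least 50 UMIs over these gates, and of these 2 were at least 2-fold higher in CD4hiCD8hi cells, as 2.92% of 9655 genes were. The third, CD226, was even at 32.3 against 30.4 CPM. ADGRG1 had 21 UMIs against 9, CLEC12A 26 against 23 in a gate with fewer cells, and AFAP1L2 5 against 0. CX3CR1 had 6 against 11, at 0.805 and 0.653 CPM. GZMB also differed between these cells, at 8.98 against 4.81 CPM, as did GZMK at 129 against 44.7 CPM.

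Among other cells grouped by a marker, GZMK marked those in which RAP1GAP2 stood highest. The 217 other cells with at least 2 GZMK UMIs, a granzyme of memory cells, had 37.5 CPM of RAP1GAP2 (25.6 to 52.9), 19.9 of RGS9 (11.6 to 31.9) and 16.4 of CLEC12A (8.96 to 27.5). After thinning, 9.55% of them had a RAP1GAP2 UMI, 4.52% an RGS9 UMI and 4.02% a CLEC12A UMI, against 4.46%, 3.57% and 0.893% of the B control cells. They had 3 UMIs of CX3CR1 and 1 of ADGRG1, and 22.1% of them had 1 or 2 GZMB UMIs. CD226 was lower in them than in most other cells, at 12.9 CPM (6.43 to 23.0), against 31.4 CPM (28.9 to 34.1) in the 5297 other cells with a CCR7 UMI. In the 374 other cells with a UMI of FOXP3, the regulatory T cell factor, RAP1GAP2 was at 14.5 CPM and CD226 at 17.8 CPM. Monocytes are the class in which CX3CR1 and CLEC12A are best known. The 18 other cells with at least 5 monocyte marker UMIs held 2 of the 17 CX3CR1 UMIs outside the GZMB cells. They held 1 of the 57 CLEC12A UMIs. These few UMIs gave 18.2 CPM of CX3CR1 (2.21 to 65.8) and 9.11 CPM of CLEC12A (0.231 to 50.7). In all cells outside the GZMB cells the levels were 0.668 and 2.24 CPM.

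**Figure D4:**
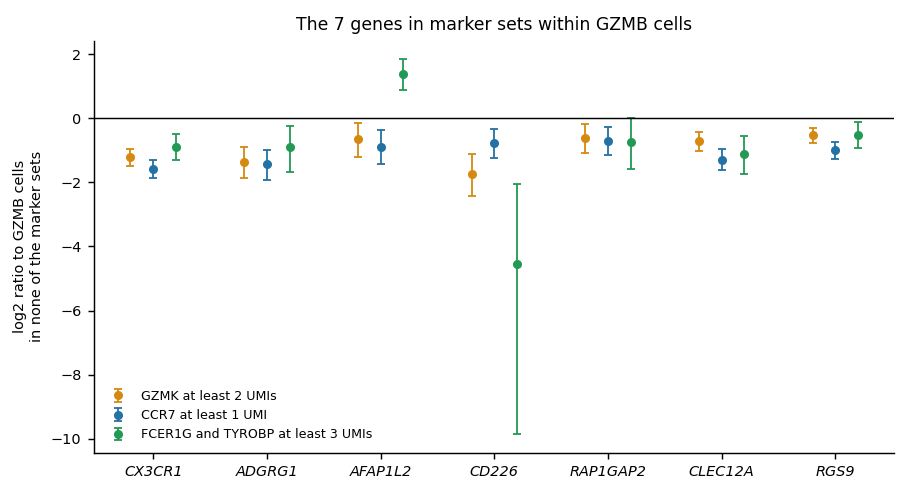
Log2 ratio of each gene in 3 sets of GZMB cells, defined by GZMK, by CCR7 or by FCER1G with TYROBP, to the 1018 GZMB cells in none of the marker sets, with exact 95% intervals. AFAP1L2 in the FCER1G and TYROBP set is the point above 0, at 1.37, and CD226 in that set is the lowest point, at −4.55 from 1 UMI.

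GZMB cells were not uniform, and the members separated most clearly in cells with innate adaptor RNA. FCER1G and TYROBP encode signalling adaptors of NK and innate-like lymphocytes. In all 65 GZMB cells had at least 3 UMIs summed over both genes. Of these cells 36 were CD4loCD8hi, 26 CD4hiCD8hi and 3 CD4hiCD8lo. AFAP1L2 stood at 136 CPM (99.9 to 180) in them, against 52.3 CPM (45.3 to 60.0) in 1018 GZMB cells with none of the marker sets. CD226 was close to absent, with 1 UMI or 2.82 CPM (0.0715 to 15.7) against 66.0 CPM (58.1 to 74.6). The log2 ratios were 1.37 (0.89 to 1.84) and −4.55 (−9.86 to −2.06), so an activator of killing and an adaptor of Src kinases stood in opposite directions in the same cells. CX3CR1 was at 152 against 283 CPM and CLEC12A at 76.2 against 165 CPM, both lower, and RGS9 at 161 against 230 CPM. Of the members 2 were at least 2-fold lower and 1 at least 2-fold higher, beside 12.3% of the 6502 genes tested that differed by 2-fold in either direction. In all 5 intervals lay below 0 and 1 above, beside 15.6% of genes with an interval without 0. Cells of an FCER1G kind were also part of the earlier results, so these counts describe and do not test. With these 65 cells and the 39 like cells outside the GZMB cells left out, the log2 ratio of AFAP1L2 between CD4hiCD8lo and CD4loCD8hi GZMB cells was 0.35 (−0.33 to 1.07) instead of −0.32, with both intervals including 0.

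In GZMB cells that also carried GZMK, the members were lower throughout. The 225 cells with at least 2 GZMK UMIs had 123 CPM of CX3CR1 (103 to 145) against 283 (267 to 300), a log2 ratio of −1.21. ADGRG1 was at 37.0 against 95.5 CPM (−1.37) and CD226 at 19.8 against 66.0 CPM (−1.73). RGS9 differed least, at 160 against 230 CPM (−0.53), and GZMB itself stood at 4202 against 4836 CPM. In all 3 members were at least 2-fold lower, beside 3.2% of 6929 genes past 2-fold in either direction, and 7 of 7 intervals lay below 0, beside 15.4% of genes with an interval without 0. The member median was −0.71 against −0.06 over all genes. Cells of a GZMK kind were part of the earlier results from which the members were chosen, so these counts also describe and do not test.

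GZMB cells with a CCR7 UMI were deep and strongly tagged, and the members were low in them. These 186 cells had a median of 6512 gene UMIs, against 3483 in the 1018 cells with none of the marker sets. Their CD4 tag was at a median of 583 against 313 and their CD8 tag at 1012 against 568. CX3CR1 was at 94.1 CPM (78.2 to 112) against 283 CPM (log2 ratio −1.59), ADGRG1 at 35.2 against 95.5 CPM (−1.44), CLEC12A at 67.4 against 165 CPM (−1.29) and RGS9 at 115 against 230 CPM. RAP1GAP2 was nearer, at 43.6 against 70.6 CPM, as was CD226, at 38.3 against 66.0 CPM. Thus 4 members were at least 2-fold lower, beside 4.86% of 7015 genes past 2-fold in either direction, and 7 of 7 intervals lay below 0, beside 27.3% of genes with an interval without 0. GZMB was lower too, at 2739 against 4836 CPM. A CCR7 UMI was found in 71.6% of the cells outside the GZMB cells, and the members were chosen as high in GZMB cells. The counts of members in the CCR7 set therefore describe and do not test. Of the 186 cells, 123 were among the 192 GZMB cells with a high doublet score, and whether 2 cells shared a droplet was not tested.

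**Figure D5:**
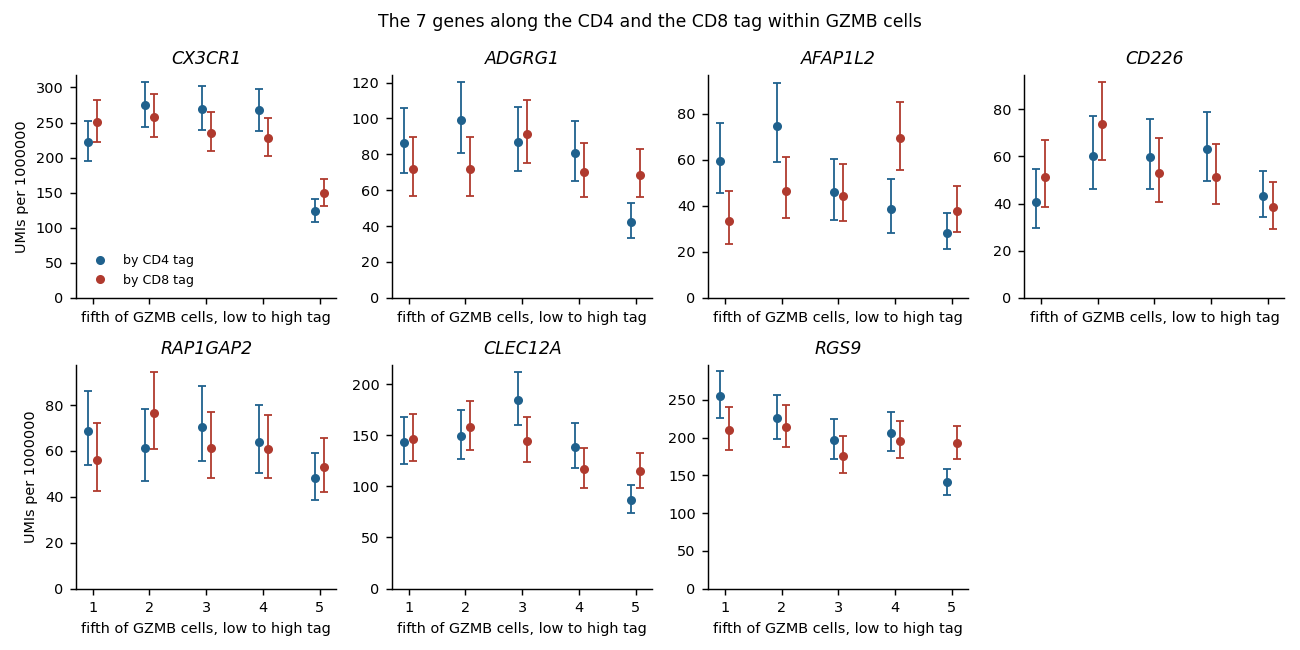
Level of each gene in UMIs per 1000000 in 5 equal bins of the GZMB cells, from low to high CD4 tag (blue) or CD8 tag (red), with exact Poisson 95% intervals. The highest bin by CD4 tag is the lowest point of that series for CX3CR1 (124 CPM), ADGRG1, AFAP1L2, RAP1GAP2, CLEC12A and RGS9.

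Along the CD4 tag, CX3CR1 and ADGRG1 stood lowest in the highest of 5 bins. By this tag, CX3CR1 was at 222, 275, 270, 267 and 124 CPM from the lowest to the highest bin. ADGRG1 was at 86.2, 98.9, 87.1, 80.7 and 42.2 CPM. The top bin was the low one in each of these, and its cells had a median of 6229 UMIs and a CCR7 UMI in 42.5% of cases, against 2.78 to 9.06% in the other bins. With CCR7 cells left out the top bin had 155 CPM of CX3CR1 (131 to 183) and 51.8 CPM of ADGRG1 (38.2 to 68.6). The lowest bin then had 231 and 94.4 CPM. In these same cells GZMB itself was also lower in the top bin, at 3829 against 6062 CPM. The top bin also remained deeper, with a median of 4904 against 3316 UMIs. The part of depth was not tested, so the lower levels are not shown to be particular to the members. RGS9 was highest at the low end of the CD4 tag, at 256, 226, 197, 207 and 141 CPM. AFAP1L2 took the values 59.3, 74.7, 45.8, 38.6 and 28.1 CPM. CD226 had no such order, at 40.8, 60.1, 59.6, 63.0 and 43.3 CPM. By CD8 tag, CX3CR1 was at 251, 258, 236, 228 and 150 CPM. RGS9 was at 211, 215, 176, 196 and 193 CPM, and ADGRG1 at 71.8, 71.8, 91.4, 70.1 and 68.6 CPM. Of these 3, CX3CR1 stood lower in the top bin. That bin was also deeper than the lowest, with a median of 4132 against 3482 UMIs, and had a CCR7 UMI in 24.4% against 5.90% of cells. With CCR7 cells left out, CX3CR1 was at 190 CPM (164 to 218) in the top and 268 CPM (236 to 302) in the lowest bin.

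Most pairs of members were found together in GZMB cells slightly more often than their separate shares would give. Pairs of other genes were not measured, so whether this is particular to the members was not tested. A GZMB cell had a UMI of at least 1 member in 78.8% of cases after thinning, of at least 2 in 45.1%, and of at least 4 in 5.31%. In other cells these were 8.53%, 0.239% and 0 of 6682 cells. For the 21 pairs of members, the share of thinned GZMB cells with both, divided by the product of the separate shares, ran from 0.915 to 1.36 with a median of 1.17, and was above 1 in 18 pairs. ADGRG1 with AFAP1L2 gave 1.36, from 27 cells, and CX3CR1 with AFAP1L2 gave 1.35, from 61 cells. ADGRG1 with RGS9 gave 1.28. CLEC12A with RGS9 gave 0.953 and AFAP1L2 with CD226 the lowest, 0.915, from 13 cells. Without thinning the range was 1.02 to 1.26, and all 21 pairs were above 1.

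Genes with a course like CX3CR1 or ADGRG1 were sought over 12 groups of cells, formed by GZMB UMIs and tag gate, by Pearson's r of log2(CPM + 5) among 7925 genes. All points share 1 pair of libraries and the step from few to many GZMB UMIs, so the values are descriptive. Nearest to CX3CR1 were CMA1 (r = 0.98), a chymase gene, with 91.7 CPM in GZMB and 0.708 CPM in other cells, RAC2, AP2M1, SPN and MSN, all with r of 0.98. RAC2 is a small GTPase of leukocytes, SPN the mucin-like sialoprotein CD43 and MSN the membrane-actin linker moesin. Nearest to ADGRG1 were EMC7, OSR2, AP2M1, PREX1 and TSPAN2, with r from 0.97 to 0.98. OSR2, a zinc finger transcription factor gene, had 62.5 CPM in GZMB and 0.197 CPM in other cells, and TSPAN2, a tetraspanin gene, 100.3 and 2.40 CPM. Among the members r ran from 0.65, for CD226 with RAP1GAP2, to 0.95, for CX3CR1 with RGS9, and the highest value for a pair with CD226 was 0.78, with AFAP1L2.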

How the data were processed

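Gene and tag counts were measured in 1 pair of libraries. The authors deposited raw UMI counts per feature and barcode, without normalization, made with Cell Ranger 3.1.0 and STAR 2.5.1b on a Macaca fascicularis reference; their Seurat 3.1.3 filter came later. Cells with 200 to 4000 genes and at most 20% UMIs of 13 mitochondrial genes were kept, 8830 of 8953 barcodes, with a median of 3145 UMIs; 0 barcodes were repeated. UMIs were summed per group as CPM with exact Poisson intervals. Ratios took the exact binomial interval of the UMI split, and shares the Clopper-Pearson interval, all at 95%; a count of 0 took a limit of 3. Steps were tested on simulated data. Scrublet (scanpy 1.11.5), at an expected rate of 6%, marked 0 cells and so did not work here; all cells were kept, and leaving out the 6% with the highest score was an alternative. Python 3.11.15, numpy 2.4.6, scipy 1.17.1 and pandas 2.3.3 were used. Named genes were the members, GZMB, markers, the 3 genes per list with the largest log2 ratio between CD4hiCD8lo and CD4loCD8hi cells (of at least 50 UMIs), and the 5 nearest to CX3CR1 and ADGRG1. The members and lists were chosen with earlier results of these data known. GZMH, GZMM, KLF2, FCGR3A and S1PR5 were not analysed here, nor were coordinates or sequences. The comparison of CD4hiCD8hi with CD4loCD8hi cells was added after seeing the data. So were the alternatives without cells with a CCR7 UMI or with at least 3 UMIs summed over FCER1G and TYROBP. Of the named genes, 1 in the monocyte list and 1 in the naive and memory list are not reported here.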

Additional observations from a re-analysis of the deposited data

How the results depend on the processing

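Ratios of the members between GZMB and other cells, and between tag gates of GZMB cells apart from CD4loCD8lo, were recomputed under 16 alternatives. Of these 14 were planned and 2 chosen after seeing the data. Thinned shares in GZMB cells and pairs of members were recomputed without thinning only. The marker sets, GZMB bins, tag bins, gene lists, B control cells, gates of other cells and likeness over groups were not recomputed under them. The number of members at least 2-fold higher in GZMB cells was 6 in each alternative, and 0 of 7 differed by 2-fold between CD4hiCD8lo and CD4loCD8hi GZMB cells in each. Alternatives that only moved a tag threshold could not change the first of these counts. Of 448 recomputed log2 ratios, 426 stayed within the interval of the reported value, 22 left it and 0 with an interval without 0 turned in direction. The 426 include the ratios of GZMB to other cells under other tag thresholds, which equal the reported values by construction. With at least 5 GZMB UMIs as the threshold, CX3CR1 in GZMB to other cells was 6.72 instead of 8.35, and with cells of a CCR7 UMI left out CLEC12A was 4.74 instead of 5.90. Without ribosomal protein genes in the denominator the median of all genes in GZMB to other cells was −0.01 instead of 0.14, and that of the members 5.74 instead of 5.89. CLEC12A between CD4hiCD8lo and CD4hiCD8hi cells also had an interval with 0 at a CD8 tag threshold of 300 and after thinning. RGS9 between CD4hiCD8hi and CD4loCD8hi cells had an interval below 0 in every alternative that gave an interval. Between gates, other tag thresholds moved intervals of ADGRG1, AFAP1L2, RAP1GAP2, CX3CR1, CLEC12A and RGS9 across 0. Depth limits the ratios of AFAP1L2 and CD226 and the CD4loCD8lo gate, and 1 animal limits every value. No paired analysis was possible because there is 1 animal and no comparison was tested.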
